A study of Mus musculus with 6 samples.

Results

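The chemoattractant receptor gene Ccrl2 and 6 further receptors for chemokines or complement peptides, Ccr1, Ccr2, Cxcr4, Cx3cr1, C5ar1 and C3ar1, were examined in LPS-treated RAW 264.7 cells, a mouse macrophage line. Ccrl2 was chosen by its lower level with ultrasound in these same libraries, so its values are given as a description with no test. The other 6 were listed as receptors, not for their change. All 7 were found once each among the 55335 genes of the table, and 3 of them, Ccrl2, C3ar1 and C5ar1, reached an average of 1 FPKM (sequenced fragments, scaled to transcript length and library size) over the 6 libraries, the filter used for every test. The line is labelled wild type, and every culture was exposed to lipopolysaccharide (LPS), a bacterial cell wall component, at 200 ng/ml over 8 h. One group of 3 libraries had LPS alone. The other group of 3 also had 10 min of ultrasound within those 8 h, at an intensity of 50 mW/cm2, a frequency of 1 MHz, a duty cycle of 20%, a pulse repetition frequency of 1 kHz and a pulse duration of 200 µs. Cells without LPS and cells with ultrasound alone were not analysed here, so no response to LPS is measured. The labels do not state separate cultures, and p-values therefore reflect no more than library-to-library spread, part of which may be technical.

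Chemoattractant receptors are membrane proteins with 7 transmembrane helices that let leukocytes sense gradients of chemokines, complement fragments, formyl peptides and lipids. Most of them couple to inhibitory G proteins, whose freed beta-gamma subunits activate phospholipase C and phosphoinositide 3-kinase gamma, and they are switched off by receptor kinases, arrestins and RGS proteins. CCRL2 is atypical: it binds the chemoattractant protein chemerin and presents it to the signalling receptor CMKLR1 on other cells, without known G protein signalling of its own. It is known as an LPS-inducible gene of macrophages. C3AR1 and C5AR1 bind the complement fragments C3a and C5a.

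The sequences upstream of Ccrl2 and C3ar1 are shown because these are the only members whose 2 groups of libraries did not overlap, one lower and one higher with ultrasound. Promoter windows from RefSeq (GRCm38.p6), each the 250 bases before an annotated start, were matched for 7 of the 7 members in 9 windows. They were searched on both strands for 5 motifs: the NF-kB consensus, the AP-1 motif TGANTCA, the PU.1 motif GAGGAAGT, the cyclic AMP response element TGACGTCA and the TATA box TATAAA. The window of the farthest upstream of the 3 Ccrl2 starts (chr9:111057519-111057768, minus strand) held 1 NF-kB match, at 56 to 47 bases before the start, and none of the other 8 windows held one. Among the 3 Ccrl2 windows this one is printed for its match, and the others held none of the 5 motifs. Which start these cells use was not tested. The C3ar1 window (chr6:122856158-122856407, minus strand) held 1 TGANTCA match at 22 to 16 bases before the start, the only such match in the 9 windows, and a TATAAA far upstream of it. The sequences run 5′ to 3′ and the capitals mark the matches.
Ccrl2: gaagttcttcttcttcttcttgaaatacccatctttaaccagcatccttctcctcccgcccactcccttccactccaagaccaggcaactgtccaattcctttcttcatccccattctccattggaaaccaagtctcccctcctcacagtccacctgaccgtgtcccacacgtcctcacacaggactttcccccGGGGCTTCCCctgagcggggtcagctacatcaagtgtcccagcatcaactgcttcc
C3ar1: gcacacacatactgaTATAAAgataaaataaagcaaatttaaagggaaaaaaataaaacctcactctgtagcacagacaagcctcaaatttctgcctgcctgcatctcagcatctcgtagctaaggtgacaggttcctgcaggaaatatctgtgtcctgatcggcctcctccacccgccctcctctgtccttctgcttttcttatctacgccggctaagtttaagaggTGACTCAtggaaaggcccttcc
Of all 32851 promoter windows of this length, 3.90% held the NF-kB consensus, 6.75% TGANTCA, 12.4% TATAAA, 2.44% GAGGAAGT and 1.55% TGACGTCA. These shares are per window, while Ccrl2 had 3 windows. A match is a description of letters and not a site in use.

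The libraries carried macrophage RNA: all 8 macrophage markers passed the filter, led by Fcer1g, Cd68 and Laptm5, and their summed level was 2391 to 2607 FPKM with LPS and 2444 to 2668 with ultrasound. The sum hides single markers. The abundant Lyz2, named after its values were seen, had 218, 153 and 297 FPKM in LPS libraries 1, 2 and 3. With ultrasound it had 304, 143 and 325 FPKM, so it was lowest in library 2 of each group. Less abundant ones of the list, named after their values were seen, differed more between group means, with overlapping groups. Adgre1, the F4/80 gene, had 25.1 ± 7.98 and 15.5 ± 2.04 FPKM, the integrin gene Itgam 21.7 ± 9.49 and 12.5 ± 0.732, and the receptor gene Csf1r 50.9 ± 19.9 and 71.7 ± 20.7 (SD, n = 3 each). Limma called none of the 8, and their part in the receptor results was not tested. Of 8 skeletal muscle markers 7 were under 1 FPKM, and the exception, the fast troponin gene Tnni2, had 28.4, 30.6 and 31.0 FPKM in LPS libraries 1, 2 and 3 and 28.3, 24.3 and 27.9 with ultrasound. Its part in the receptor results was not tested. No neutrophil, B cell, fibroblast or endothelial marker passed. The T cell kinase gene Lck (5.24 to 9.97 FPKM) was 1 of 4 T cell markers that passed and Itgax (7.07 to 12.3 FPKM) 1 of 4 dendritic cell markers. LPS library 2 stood apart in genes known to be induced by LPS, a response not measured here. The summed level of 11 such genes (Tnf, Il1b, Il6, Ptgs2, Cxcl2, Ccl3, Ccl4, Cxcl10, Nfkbia, Tnfaip3 and Nos2) was 1973, 3819 and 1940 FPKM in LPS libraries 1, 2 and 3 and 1227, 1931 and 1268 FPKM with ultrasound. Ccl3 led this sum, with 1119, 1955 and 1220 FPKM in LPS libraries 1, 2 and 3. Cxcl10 was under the filter. Of the 10 genes that passed, 9 were highest in LPS library 2 among the LPS libraries. Tnfaip3 was lowest there, at 12.2 FPKM against 14.4 and 18.9 in LPS libraries 1 and 3. FPKM sums of whole libraries ran from 278871 to 292200.

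Ccrl2 (ENSMUSG00000043953) had 35.0, 63.1 and 41.5 FPKM in LPS libraries 1, 2 and 3 and 17.5, 17.9 and 20.7 FPKM in the ultrasound libraries of the same numbers. Every ultrasound library lay below every LPS library, and the ultrasound libraries lay close together while LPS library 2 was the high one of its group. The means were 46.5 ± 14.7 FPKM with LPS and 18.7 ± 1.73 FPKM with ultrasound (SD, n = 3 each), 2.49-fold lower. On the scale of log2(FPKM + 1), which understates changes of low genes, the difference was -1.23 ± 0.20 (standard error), the 12th largest negative difference of 11270 genes. Because the gene was chosen for this difference, it is no evidence of its own. Without LPS library 2 the difference was -0.99 ± 0.11, and without both libraries numbered 2 it was -0.97 ± 0.12. No other annotated gene shares exon bases with Ccrl2, and none of its 2588 windows of 50 bases occurs in a transcript of another gene. Its 3 annotated transcripts span 569 to 2459 bases, and its FPKM also rests on how reads were divided among them. In RNA from whole cultures, fewer cells with a transcript and less of it in each cell cannot be told apart.

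**Figure D1:**
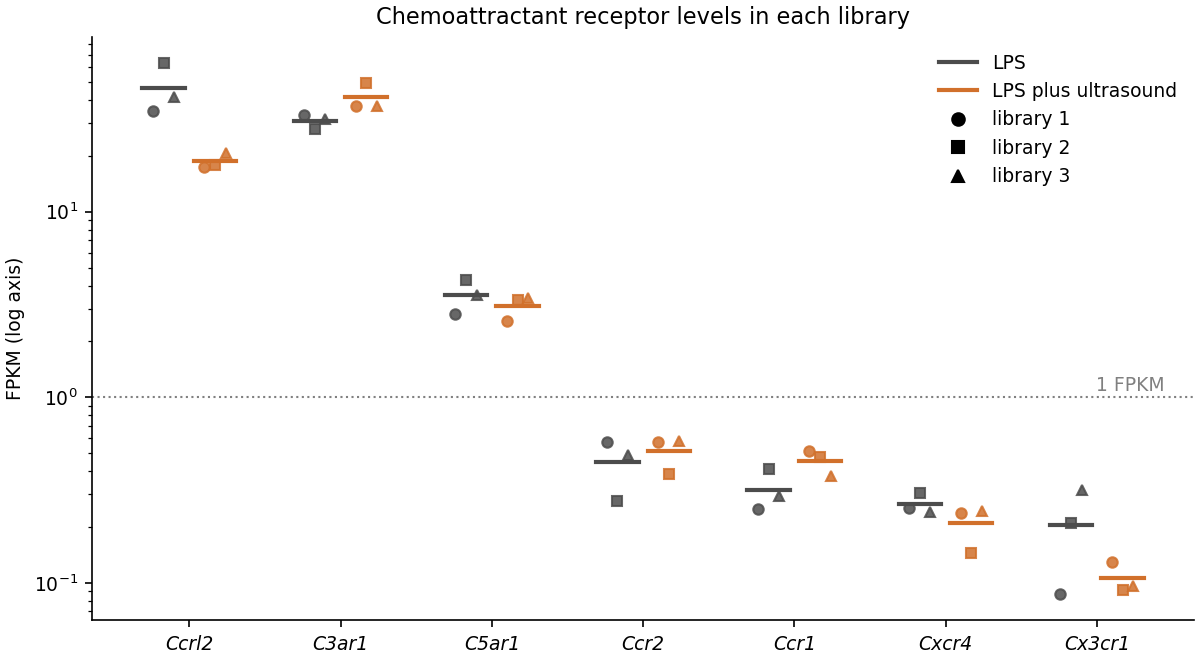
FPKM (log axis) of the 7 receptor genes in each of the 6 libraries. Points are libraries, horizontal bars are means of 3 libraries, and the dotted line is the filter of 1 FPKM. Ccrl2 is at 35.0 to 63.1 FPKM with LPS and 17.5 to 20.7 with ultrasound, C3ar1 at 27.9 to 33.2 and 37.0 to 49.6, and 4 receptors lie under 1 FPKM in every library.

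C3ar1 (ENSMUSG00000040552), the C3a receptor gene, lay on the other side. It had 33.2, 27.9 and 31.7 FPKM in LPS libraries 1, 2 and 3 and 37.0, 49.6 and 37.4 FPKM with ultrasound. The groups did not overlap, but the lowest and highest values were both in libraries numbered 2. The means were 30.9 ± 2.71 and 41.3 ± 7.18 FPKM (SD, n = 3 each), 1.34-fold higher with ultrasound. The log2 difference of 0.40 ± 0.13 did not pass the threshold of 0.05 (limma, Benjamini-Hochberg adjusted p = 0.248). It was 0.26 ± 0.09 without ultrasound library 2 and 0.19 ± 0.06 without both libraries numbered 2. A larger positive difference was seen in 2.99% of the tested genes. The single annotated transcript of 4305 bases shares no exon bases with another gene.

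C5ar1 (ENSMUSG00000049130), the C5a receptor gene, was less abundant. It had 2.80, 4.28 and 3.57 FPKM in LPS libraries 1, 2 and 3 and 2.56, 3.36 and 3.43 FPKM with ultrasound. The groups overlapped, although each ultrasound library lay below the LPS library of its number. The means of 3.55 ± 0.739 and 3.12 ± 0.483 FPKM (SD, n = 3 each) differed by less than the spread between libraries (log2 difference -0.14 ± 0.15, limma with Benjamini-Hochberg adjusted p = 0.674).

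Of the 6 receptors other than Ccrl2, 2 could be tested and 0 were called. Across all 11270 tested genes, limma called 2 (0.0177%) higher and 0 (0%) lower with ultrasound. At an unadjusted p below 0.05 it placed 697 higher and 1032 lower. With the replicate number as a block, 4 were called higher and 9 lower, and with every library scaled to the same FPKM sum 4 and 1. This scaling also moved the share of higher genes at an unadjusted p below 0.05 from 40.3% to 30.2%, while it was 48.7% after median-ratio scaling and 48.6% after quantile normalization. Groups that did not overlap were common: 9.8% of tested genes were higher in every ultrasound library and 13.4% lower. C3ar1 is 1 of the 2 testable receptors with such a separation, and with 2 genes no share can be set against that background.

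The other 4 members, the receptors for chemokines that draw monocytes and macrophages, were barely present. Ccr2, the receptor for CCL2, had 0.576, 0.277 and 0.486 FPKM in LPS libraries 1, 2 and 3 and 0.577, 0.388 and 0.582 with ultrasound. Ccr1, a receptor for CCL3 and CCL5, had 0.250, 0.409 and 0.293 FPKM in LPS libraries 1, 2 and 3 and 0.513, 0.475 and 0.378 with ultrasound. Groups overlapped for both genes, although each ultrasound library lay above the LPS library of its number. The lowest Ccr2 value was in LPS library 2 and the lowest Ccr1 value in LPS library 1. Cxcr4, the receptor for CXCL12, had 0.254, 0.306 and 0.240 FPKM in LPS libraries 1, 2 and 3 and 0.236, 0.145 and 0.244 with ultrasound. Cx3cr1, the fractalkine receptor gene, had 0.0874, 0.209 and 0.315 FPKM in LPS libraries 1, 2 and 3 and 0.129, 0.0916 and 0.0957 with ultrasound. These groups overlapped too, and the ultrasound libraries were lower in 2 of 3 same-numbered pairs for each gene. When the filter was lifted, limma called none of the 4 (Benjamini-Hochberg adjusted p = 0.800 for Ccr2, 0.598 for Ccr1, 0.692 for Cxcr4 and 0.659 for Cx3cr1). At these levels the table cannot show whether they differed. Of the 50-base windows of Ccr2, 1.91% also occur in transcripts of another gene, and Cx3cr1 shares 78 exon bases with Gm33858 on the opposite strand.

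FPKM is scaled to length, so the members can be ordered by level, within a limit. The lengths used by the authors are not known, and annotated transcripts span 569 to 2459 bases for Ccrl2 and 674 to 2540 for C5ar1. The order, and the ratios and shares of a sum below, rest on those lengths. With LPS the order was Ccrl2, C3ar1, C5ar1, Ccr2, Ccr1, Cxcr4 and Cx3cr1. With ultrasound C3ar1 stood first and Ccrl2 second, and the other 5 had the same order. The range of Ccrl2 lay above that of C3ar1 under LPS, narrowly, and below it with ultrasound. Within libraries the ratio of Ccrl2 to C3ar1 was 1.05, 2.26 and 1.31 in LPS libraries 1, 2 and 3 and 0.474, 0.360 and 0.553 with ultrasound. This ratio and the change of first place restate in part the difference for which Ccrl2 was chosen. C3ar1 and C5ar1, and C5ar1 and Ccr2, were separated in both groups, as were Ccrl2 and C5ar1 with ultrasound. Under LPS the ranges of Ccr2 and Ccr1, of Ccr1 and Cxcr4, and of Cxcr4 and Cx3cr1 overlapped, so these neighbours did not differ beyond their spread. With ultrasound only Ccr2 and Ccr1 overlapped among the neighbours.

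A wider list of 41 chemoattractant receptor genes places the members among their relatives. Only 8 passed the filter, the 3 members above and Cxcr3, Ptafr, Gpr183, Ccr10 and Ccr7, while 9 were listed at 0 in every library. The summed level of the 41 was 89.4, 116.2 and 97.0 FPKM in LPS libraries 1, 2 and 3 and 77.2, 93.5 and 82.2 FPKM with ultrasound. Ccrl2 made up 39.1%, 54.3% and 42.8% of this sum under LPS and 22.7%, 19.1% and 25.1% with ultrasound. C3ar1 made up 37.1%, 24.0% and 32.7% under LPS and 47.9%, 53.0% and 45.4% with ultrasound. Both genes together made up 70.5% to 78.3% of the sum, so a lower share of one raises that of the other by construction, and the Ccrl2 share restates the difference for which the gene was chosen. Without Ccrl2 the sum was 54.4, 53.1 and 55.5 FPKM under LPS and 59.6, 75.6 and 61.6 with ultrasound, higher in every ultrasound library, while the full sums overlapped between groups. The sum without Ccrl2 still holds C3ar1, at 27.9 to 33.2 FPKM under LPS and 37.0 to 49.6 with ultrasound. It therefore does not show that the other 39 receptors differed.

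**Figure D2:**
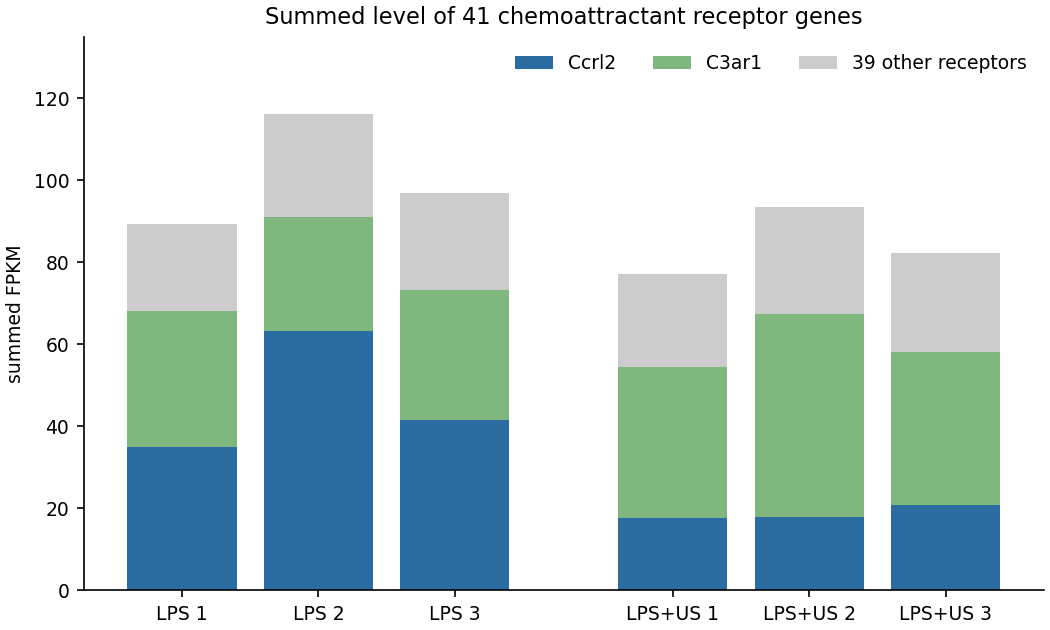
Summed FPKM of 41 chemoattractant receptor genes in each library, divided into Ccrl2, C3ar1 and the other 39 (LPS+US, LPS plus ultrasound). Ccrl2 is the larger part in each LPS library (39.1% to 54.3%) and C3ar1 in each ultrasound library (45.4% to 53.0%).

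Of the 7 receptors beside Ccrl2 limma called 0, with 4 differences negative and 3 positive. Cxcr3, the receptor for the interferon-induced chemokines, was the third most abundant. It had 7.30, 6.59 and 7.63 FPKM in LPS libraries 1, 2 and 3 and 8.40, 9.88 and 8.25 FPKM with ultrasound. Its groups did not overlap (log2 difference 0.27 ± 0.10, limma with Benjamini-Hochberg adjusted p = 0.283), and the difference was 0.14 ± 0.08 without both libraries numbered 2. Ptafr, the receptor gene for platelet-activating factor, had overlapping groups of 3.67 to 6.34 and 3.24 to 5.04 FPKM. The T cell zone homing receptor gene Ccr7 had 1.37 ± 0.324 and 0.975 ± 0.273 FPKM and Ccr10 1.43 ± 0.507 and 1.38 ± 0.122 (SD, n = 3 each). The direction of Ccr10 turned with the pseudocount, the scaling and the library left out (0.16 without LPS library 3), and that of Ptafr turned without LPS library 2. The oxysterol receptor gene Gpr183 had 1.79 ± 0.564 and 1.93 ± 0.719 FPKM, and its small positive log2 difference (0.06) turned to -0.02, -0.01 and -0.13 without LPS library 1, LPS library 3 and ultrasound library 2. The atypical relatives of Ccrl2 were near absent: Ackr4 and Ackr2, which take up chemokines without G protein signalling, had means of 0.0317 and 0.0178 FPKM over the 6 libraries. The chemerin receptor gene Cmklr1 was listed at 0 in 6 of 6 libraries and Gpr1, the second chemerin receptor gene, in 5 of 6. The formyl peptide receptor gene Fpr1 was listed at 0 throughout and Fpr2 in 5 of 6.

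Ligands of the members were measured in the same cells. Of 16 ligand or precursor genes 7 passed the filter, and limma called 0 of them. All 7 had negative differences, beside 53.9% of all tested genes. Their median was -0.36 on the log2 scale, beside -0.02 over all tested genes. Ccl3 and Ccl4 are also in the list of LPS-induced genes, so the 2 lists are not separate results. The CCR1 ligand gene Ccl9, named after its values were seen, had overlapping groups of 188 ± 63.0 and 155 ± 21.8 FPKM (SD, n = 3 each). The median of the 7 kept its sign under each scaling and ran from -0.64 without ultrasound library 2 to -0.28 without both libraries numbered 2. Without LPS library 2 alone it was -0.33, with 5 of 7 negative. Ccl3, a ligand of CCR1, had 1119, 1955 and 1220 FPKM in LPS libraries 1, 2 and 3 and 783, 1245 and 793 FPKM with ultrasound. Ccl5, another, had 318 ± 195 and 175 ± 102 FPKM (SD, n = 3 each), with overlapping groups. Blocking on the replicate number, limma called Ccl5 (log2 difference -0.84 ± 0.05, Benjamini-Hochberg adjusted p = 0.0355) and Ccl4 (-1.29 ± 0.06, adjusted p = 0.0232), against 0.452 and 0.370 without it, and no other gene of the lists. Without the block and without LPS library 2 the differences of Ccl5 and Ccl4 were -0.37 and -0.73. That fit keeps ultrasound library 2, and without both libraries numbered 2 they were -0.82 ± 0.07 and -1.25 ± 0.16.

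Mif, whose product binds CXCR4 among other receptors, had 410, 506 and 456 FPKM in LPS libraries 1, 2 and 3 and 358, 360 and 353 FPKM with ultrasound. Its groups did not overlap and the ultrasound libraries were nearly equal (log2 difference -0.35 ± 0.09, limma with Benjamini-Hochberg adjusted p = 0.202). C3, the precursor of the C3AR1 ligand, is named after its values were seen. It had 27.4, 32.4 and 34.2 FPKM in LPS libraries 1, 2 and 3 and 23.9, 21.9 and 26.7 FPKM with ultrasound (log2 difference -0.36 ± 0.11, limma with Benjamini-Hochberg adjusted p = 0.234). The groups did not overlap, in the direction opposite to that of C3ar1. Ccl2, whose product binds CCR2, had 2.32, 9.31 and 2.89 FPKM in LPS libraries 1, 2 and 3 and 1.90, 5.73 and 2.71 FPKM with ultrasound. Its groups overlapped and both libraries numbered 2 were high. It is named after its values were seen. Some other ligands were at or near 0: the chemerin gene Rarres2 had at most 0.0352 FPKM, the C5 gene Hc an average of 0.00375, Cx3cl1 at most 0.131, and Cxcl12 was listed at 0 in every library.

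**Figure D3:**
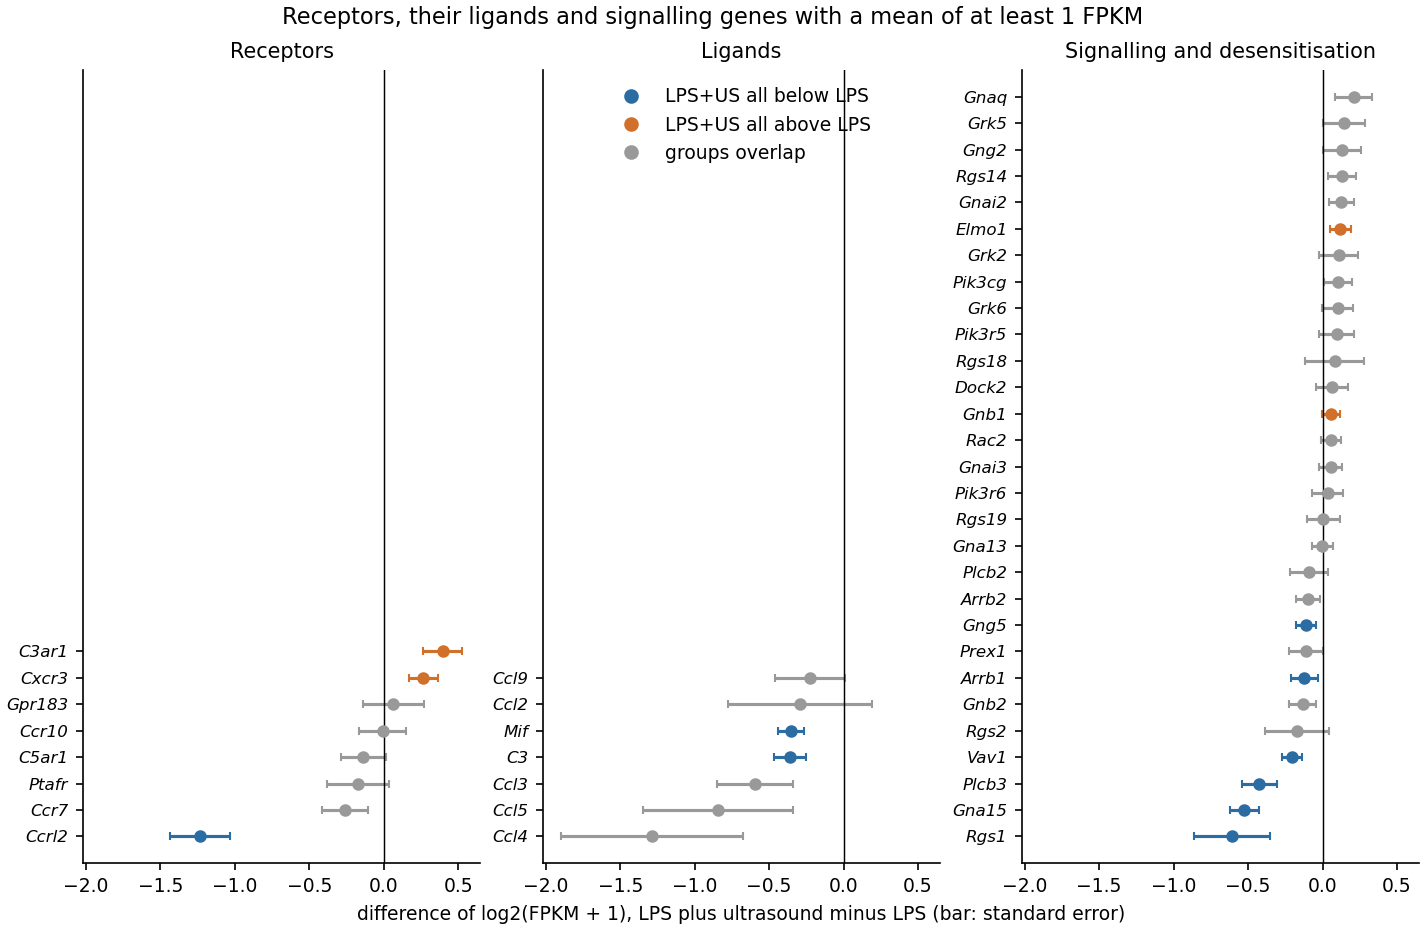
Ultrasound minus LPS-alone differences on the log2(FPKM + 1) scale for the 8 receptors, 7 ligands and 29 signalling genes that passed the filter. Points are estimates from limma with bars of 1 standard error, coloured by whether all ultrasound libraries lay below or above all LPS libraries. Ccrl2 at -1.23 and C3ar1 at 0.40 are the extremes of the receptors. Rgs1 (-0.61), Gna15 (-0.52) and Plcb3 (-0.42) are the lowest of the signalling genes.

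Genes that carry or end the receptors' signal were mostly detected. Of 32 such genes 29 passed the filter, 12 with negative and 17 with positive differences, a median of 0.05 on the log2 scale, and limma called 0. Without ultrasound library 2 the median was -0.03, with 16 of 29 negative, without LPS library 1 it was 0.01, and without both libraries numbered 2 it was 0.00. Rac2, a small GTPase gene of blood cells, had 307 ± 14.2 FPKM in the LPS libraries and 319 ± 5.85 in the ultrasound libraries. The inhibitory G protein genes Gnai2 and Gnai3 had 126 ± 11.2 and 138 ± 6.75 FPKM, and 109.6 ± 6.57 and 113.7 ± 5.41 FPKM (SD, n = 3 each). All of these overlapped between groups. Groups did not overlap for 6 of the 29 genes in the lower direction and 2 in the higher. Over all tested genes 13.4% were separated in the lower direction and 9.8% in the higher, and the list was not tested against these shares. Gna15, Plcb3 and Rgs1 had the largest negative differences and are named after their values were seen. Gna15, a G protein alpha subunit gene of blood cells, had 3.07, 3.52 and 3.77 FPKM in LPS libraries 1, 2 and 3 and 2.04, 2.00 and 2.23 with ultrasound. Its log2 difference of -0.52 ± 0.10 did not pass (limma, Benjamini-Hochberg adjusted p = 0.148) and was -0.51 without LPS library 2. The phospholipase gene Plcb3 had 5.02 ± 0.837 and 3.46 ± 0.235 FPKM, and Rgs1, a brake on receptor-coupled G proteins, 6.21 ± 2.96 and 3.52 ± 0.408 (SD, n = 3 each; limma with Benjamini-Hochberg adjusted p = 0.222 and 0.321). LPS library 3 was the high one for Rgs1, at 9.62 FPKM, and without it the log2 difference went from -0.61 to -0.29. The arrestin genes Arrb1 and Arrb2, also named after their values were seen, had log2 differences of -0.12 ± 0.09 and -0.10 ± 0.08.

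The pattern of Ccrl2 over the 6 libraries was compared with that of 6695 other genes with a symbol and an average of 5 FPKM or more. Likeness was measured as the root mean square difference of log2(FPKM + 1) after each gene was centred on its own mean. The libraries share their groups and LPS library 2, so the order is a description. The nearest was Hcar2, a receptor gene for niacin and hydroxybutyrate, at 0.15, with 8.00, 18.6 and 12.2 FPKM in LPS libraries 1, 2 and 3 and 3.75, 4.70 and 4.21 with ultrasound. Then came Malt1, a protease gene of NF-kB signalling, at 0.20, and Ticam2, the TLR4 adaptor gene TRAM, at 0.21. The transcription factor gene Atf3 followed at 0.21 and the nucleic acid sensor gene Zbp1 at 0.25. All 5 had their highest value in LPS library 2 and separate groups, as Ccrl2 did, which picking genes by likeness to Ccrl2 favours. Without LPS library 2, 3 of the 5 (Hcar2, Malt1 and Ticam2) were still among the nearest 5, and without both libraries numbered 2 none was. C3ar1 was 0.89 from Ccrl2.

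Ccrl2 was also set beside the LPS-induced genes. Of the 10 that passed the filter 9 had negative differences, with a median of -0.77, and limma called 0. The median was -0.45 without LPS library 2 and -0.67 without both libraries numbered 2. Of these 10 genes 8 had their highest value of all 6 libraries in LPS library 2, as Ccrl2 did. Within the ultrasound group 8 of the 10 were highest in library 2, whereas Ccrl2 was highest in library 3 (20.7 FPKM, against 17.9 in library 2). Nfkbia, the NF-kB inhibitor gene, averaged 335 ± 119 FPKM under LPS and 200.3 ± 9.19 with ultrasound (SD, n = 3 each), with separate groups (log2 difference -0.68 ± 0.23, limma with Benjamini-Hochberg adjusted p = 0.254). Its difference was -0.41 ± 0.13 without LPS library 2.

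**Figure D4:**
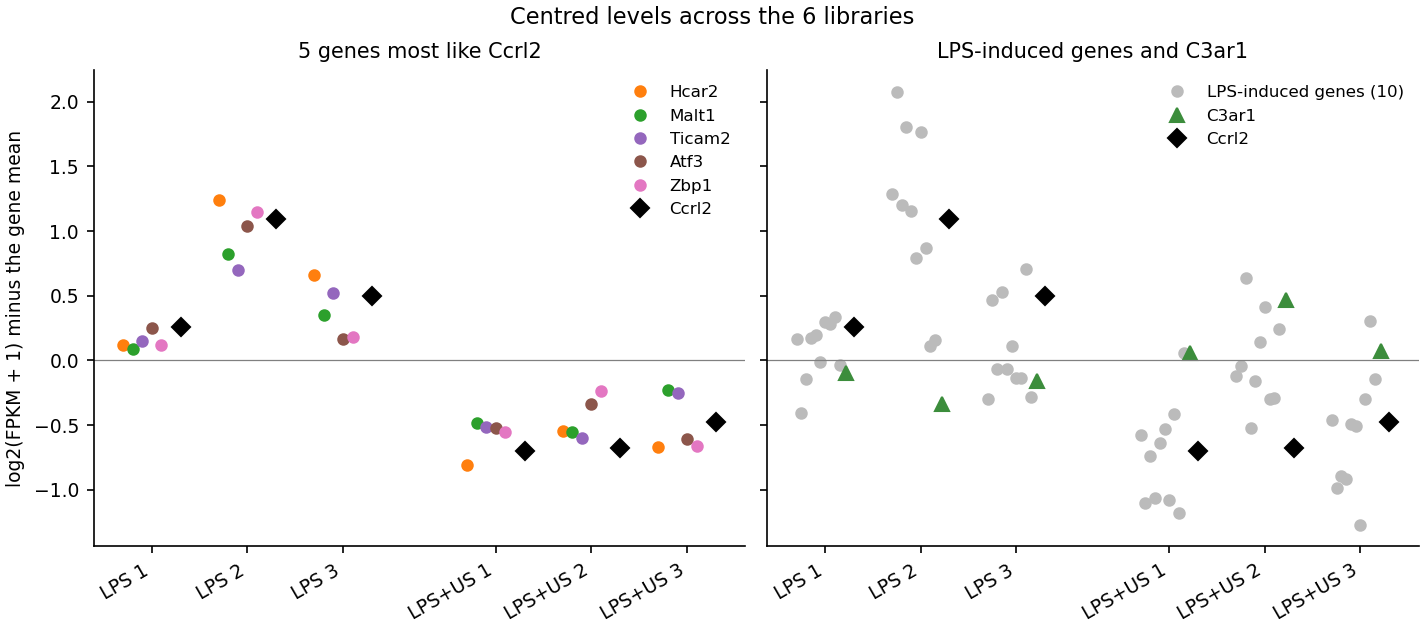
Levels of log2(FPKM + 1) minus the mean of each gene in the 6 libraries (LPS+US, LPS plus ultrasound). The left panel shows Ccrl2 (black diamonds) with the 5 genes of the smallest root mean square difference (0.15 to 0.25), the right panel Ccrl2, C3ar1 (green triangles) and 10 LPS-induced genes (grey). Ccrl2 lies above its mean in each LPS library and below it in each ultrasound library, and C3ar1 the other way round.

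The genes beside Ccrl2 on chromosome 9 were followed too, as the GENCODE M21 annotation orders them. On one side lie Ltf, Rtp3 and Lrrc2, of which Rtp3 and Lrrc2 were listed at 0 in every library and Ltf, the lactotransferrin gene, had at most 0.0107 FPKM. Lrrfip2 and Epm2aip1 lie on the other side. Lrrfip2 had 23.8 ± 1.46 FPKM with LPS and 21.4 ± 1.36 with ultrasound (SD, n = 3 each; log2 difference -0.15 ± 0.08), and Epm2aip1 7.19 ± 2.61 and 9.04 ± 1.49. Groups of both genes overlapped, so neither had the separation seen for Ccrl2.

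**Figure D5:**
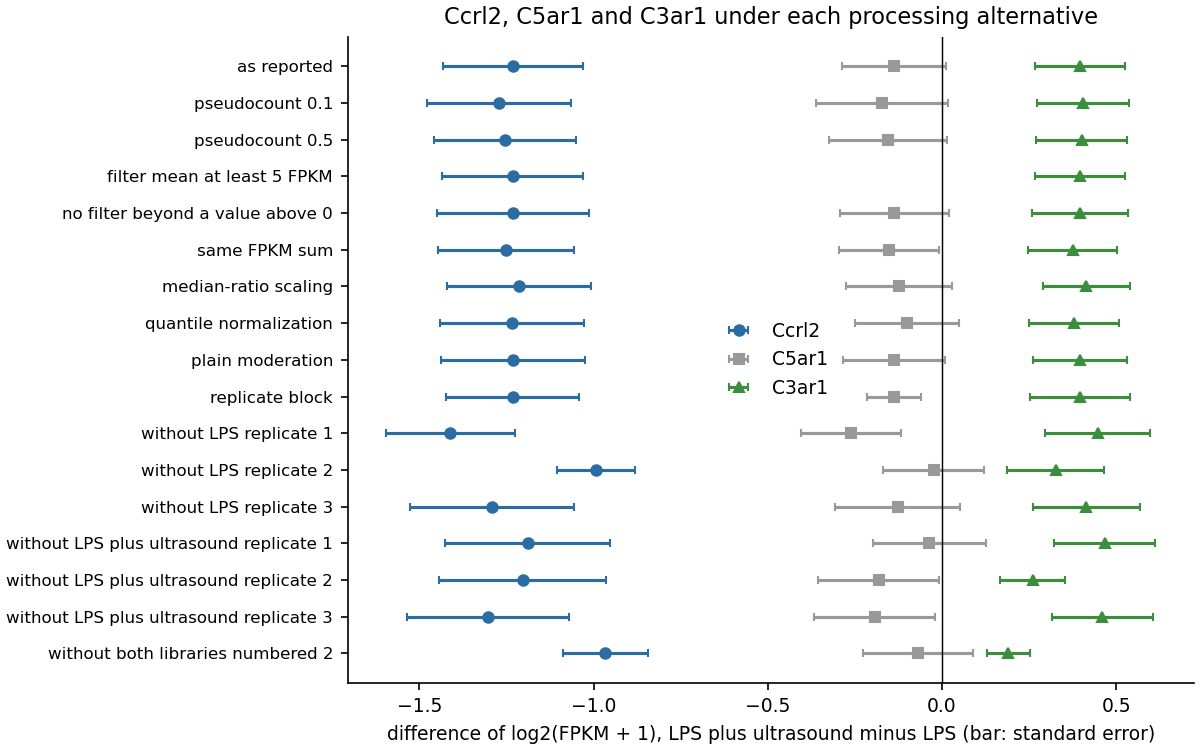
Ultrasound minus LPS-alone differences on the log2(FPKM + 1) scale of Ccrl2, C5ar1 and C3ar1 under each processing alternative, with bars of 1 standard error. C5ar1 has no point where the filter of 5 FPKM removes it. Ccrl2 lies between -1.41 and -0.97, C3ar1 between 0.19 and 0.47 and C5ar1 between -0.26 and -0.02.

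Processing moved the sizes and not the order of the 3 testable members. Ccrl2 was negative and C3ar1 positive in 16 of 16 alternatives each, and C5ar1 negative in 15 of 15. No alternative called C3ar1 (limma, Benjamini-Hochberg adjusted p = 0.163 to 0.535) or C5ar1 (0.295 to 0.964).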

How the data were processed

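Poly(A) RNA of 6 RAW 264.7 libraries was sequenced as paired ends, per the labels' protocols. The deposited table holds FPKM per mouse Ensembl gene, computed by the authors. Aligner, quantifier and annotation were not stated in the labels. A rat build, mRatBN7.2, stands in the submitters' processing notes, and one of the labels' protocols speaks of rat muscle, but all 55335 identifiers belong to mouse genes. The gene names table gave 55154 of them a symbol. Columns were matched to libraries by the initial and number of the titles, and 0 columns were left over. FPKM are relative to the library sum, and reads of near-identical genes may be divided between them.

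Tests covered the 11270 genes that averaged 1 FPKM or more (44065 were removed). They used limma (version 3.58.1, R 4.3.3) with trend and robust moderation on log2(FPKM + 1), two-sided, Benjamini-Hochberg adjusted over all tested genes, at a threshold of 0.05. The fit was run on simulated data in which libraries were independent, without the pairing described below. This was a check of the fit and does not show that uncalled genes were unchanged. The table holds no counts. Low values of genes with 1 transcript piled up at steps, but 45.1% to 54.3% of them lay within 0.1 of a whole step, so the depth stays unknown and counting intervals are not given. Deviations from group means correlated at 0.18, 0.44 and 0.41 between same-numbered libraries, across genes. Between unlike-numbered libraries they correlated at -0.40 to 0.06. Deviations cancel within a group, so these values are not independent of each other, and that of the libraries numbered 1 was weak. On this basis the numbers of the titles were taken to pair the libraries. The fit without a block stayed the reported one, so its standard errors and p-values leave this pairing out. With the block 4 genes were called higher and 9 lower, against 2 and 0 without it. Leaving out a single library also leaves its same-numbered partner in the fit.

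The members, lists and tests were chosen with earlier results of these data known. Named genes are the members, the called or else 3 most abundant genes of each list, the 5 nearest to Ccrl2 and its 3 annotated protein-coding neighbours on each side. Some of these are not reported here. Others are marked as named after their values were seen. Alternatives were 2 pseudocounts, 2 filters, 3 scalings, plain moderation, the replicate block and leaving out libraries. Shared sequence was checked in the GENCODE M21 transcripts with windows of 50 bases. Figures were drawn with matplotlib 3.10.9.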

Additional observations from a re-analysis of the deposited data

How the results depend on the processing

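Genes called higher by limma numbered 2 as reported, 1 with a filter of 5 FPKM, 4 with the replicate block, 4 with the same FPKM sum, 5 without both libraries numbered 2, and 2 to 6 when each library was left out in turn. Genes called lower numbered 0 as reported, 9 with the replicate block, 1 with the same FPKM sum, 1 without both libraries numbered 2, and 0 to 2 when each library was left out. None of the 6 receptors other than Ccrl2 was called under any alternative. The block called Ccl4 and Ccl5 and changed no other call in the lists, whose counts stayed as reported in 94 of 96 cases. Leaving out each library in turn gave -1.41 to -0.99 for Ccrl2 and 0.26 to 0.47 for C3ar1, and 3 scalings 0.38 to 0.41 for C3ar1 (log2). Ccr1, Ccr2, Cxcr4 and Cx3cr1 have a value only without the filter, at 0.14, 0.07, -0.07 and -0.12. With 3 libraries per group and no counts, differences of these low genes could not be resolved.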
